A study of Mus musculus with 10 samples.

Results

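The genes described here are 37 transcripts of Kupffer cells, other macrophages and inflammation, taken by gene symbol from a table of 51911 genes measured in mouse liver by RNA sequencing. Each of the 37 symbols matched 1 row, and 36 of them had enough reads to enter the test. The study compared livers of 5 wild type C57BL/6 mice with 5 livers labelled Cpt1a L-/-, in which the liver lacks carnitine palmitoyltransferase 1A, the enzyme that commits long-chain fatty acids to mitochondrial oxidation. All 10 samples came from animals of the same strain fed high-fat chow (HFD) over 8 weeks, so there was no group on a standard diet. The sources used here do not give the driver of the deletion or the age and sex of the mice. Whether every numbered sample is a separate animal is not stated in the labels, so p-values reflect only the variation among the samples. RNA was extracted from liver tissue without cell sorting, so a lower transcript level from fewer cells cannot be told apart from one with less RNA per cell.

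Kupffer cells are the resident macrophages of the liver. They line the sinusoids, clear particles and bacterial products from portal blood through scavenger receptors, and renew themselves locally. In steatosis and injury, monocytes recruited from blood through the chemokine Ccl2 and its receptor Ccr2 add to them, and part of these cells turn into lipid-associated macrophages that express Trem2, Gpnmb and Cd9. Bacterial lipids sensed through Cd14 and Toll-like receptors activate NF-kappaB, which drives cytokines such as Tnf and Il1b and the neutrophil attractant Cxcl1.

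Total counts ran from 20599099 to 26955958 per library, where 3 counts correspond to 0.111 to 0.146 CPM (read counts scaled to a common library size), and this covers counting error only. Cpt1a itself checked the labels, with 430.1 ± 85.8 CPM in wild type livers against 80.0 ± 9.19 CPM in knockouts (SD, n = 5 per genotype, edgeR adjusted p = 1.9e-05). The hepatocyte list of 12 markers was present in every library, with a summed level between 48640 and 84860 TPM (length-scaled transcript abundance), against 429.8 to 758.0 TPM for the 37 genes together. Wild type replicates 1 and 2 and knockout replicate 2 stood apart by gene length. In these 3 libraries tested genes of 4000 bases and over lay below their own mean, with median log2 deviations of -0.18, -0.14 and -0.11, and those under 2000 bases above it, at 0.25, 0.23 and 0.16. Per the labels' protocols only RNA above a set integrity was sequenced, but the sources used here do not give the integrity of each sample. The part of this pattern in the results was not tested, and member values without these libraries are given with the results by gene length.

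No gene of the set passed the test between genotypes. Of the 36 tested, edgeR's quasi-likelihood test called 0 at an adjusted p under 0.05, where 0.132% of all 13619 genes tested were called (0.0808% higher and 0.0514% lower in knockouts). At an unadjusted p under 0.05 the count was also 0 of 36, against 4.82% of all genes. DESeq2 called 0 of 35 (0.636% of all genes), and by the authors' deposited table a p-value under 0.05 was given to 0 of 37 (1.55% of all genes). The libraries of the genotypes overlapped for all 37 genes, whereas they did not overlap for 1.05% of the genes tested. The log2 fold change of knockout against wild type was negative for 30 of 36 genes with a median of -0.14, where 55.3% of all genes were negative with a median of -0.02. With other scaling factors (RLE, upper quartile) 30 of 36 were negative as well, with medians of -0.14 and -0.13. The split did depend on the use of such factors. With library size alone 21 of 36 were negative with a median of -0.03, against 34.0% and a median of 0.07 over all genes, so both medians rose.

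**Figure D1:**
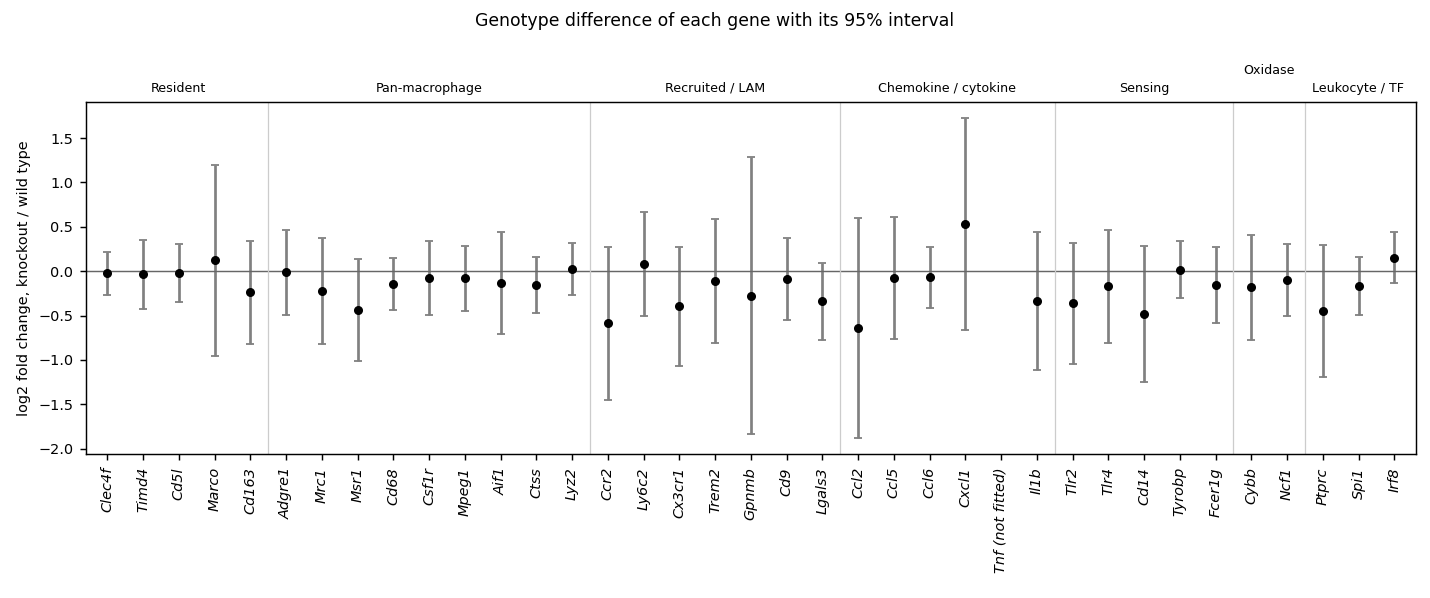
Log2 fold change of knockout against wild type (y axis) for each gene (x axis, grouped by role), with the 95% interval of the edgeR fit as bars, n = 5 libraries per genotype. All 36 intervals include 0, and they are narrowest for Clec4f, Irf8 and Lyz2 and widest for Gpnmb, Ccl2 and Cxcl1.

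The genes spanned a wide range of levels. Measured per length as mean TPM over the 10 libraries, the highest were Lyz2 (91.0 TPM), which encodes lysozyme of myeloid cells, Cd5l (87.5), Clec4f (82.6), Tyrobp (55.7), Ctss (41.1) and Fcer1g (40.9). The lowest were Cx3cr1 (0.263 TPM), Tnf (0.269), Tlr4 (0.474), Ccr2 (0.550) and Gpnmb (0.761). Summed levels were 183 ± 35.3 TPM in wild type and 194 ± 38.4 TPM in knockout livers for 5 resident genes, and 33.3 ± 12.7 and 30.1 ± 8.76 TPM for 7 genes of recruited and lipid-associated macrophages. TPM carries no scaling factor between libraries. Over all genes tested, mean log2(TPM + 0.1) relative to each gene's own mean ran from -0.35 (wild type replicate 2) to 0.24 (knockout replicate 3). The sums therefore describe levels and do not compare the genotypes.

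**Figure D2:**
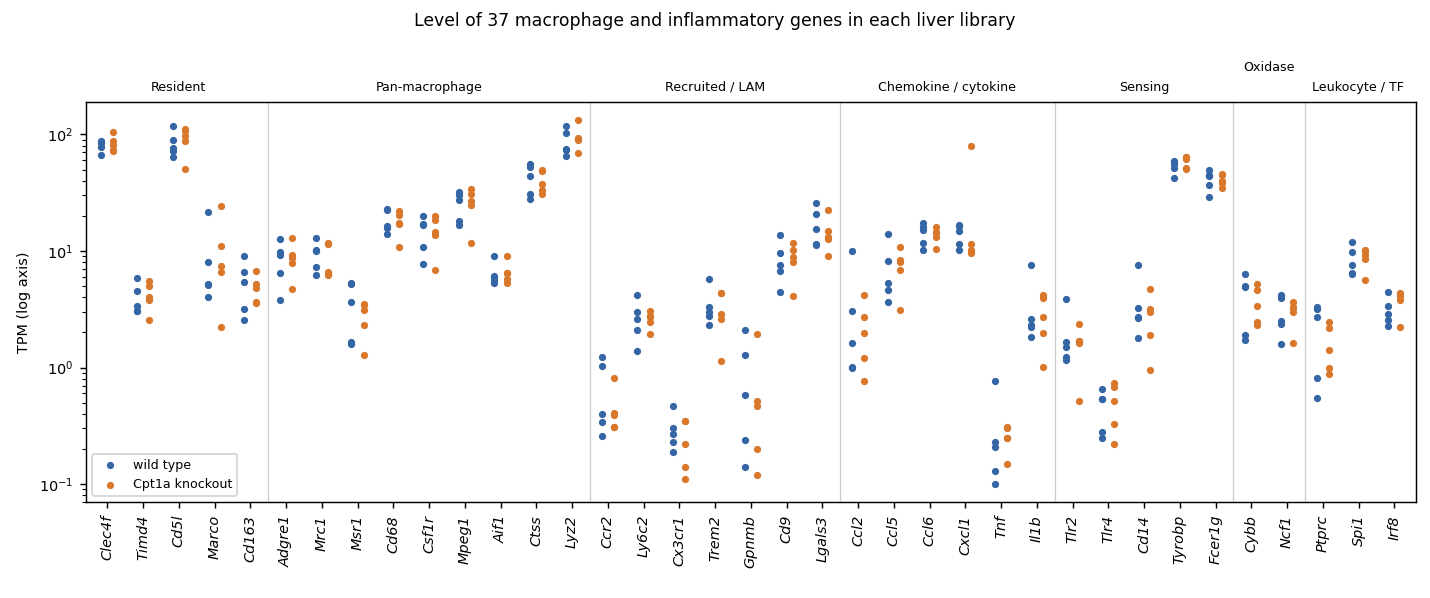
Level of each gene in TPM (y axis, log scale) by gene and role (x axis), 1 point per library, 5 wild type in blue and 5 knockout in orange. Resident genes Clec4f and Cd5l lie near 100 TPM, Ccr2, Cx3cr1 and Gpnmb around or below 1 TPM, and 1 knockout library stands far above the others for Cxcl1.

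Promoters were searched because 1 member, Spi1, encodes PU.1, the transcription factor of the macrophage lineage, and because several members are known NF-kappaB targets. RefSeq promoter windows (GRCm38.p6, 250 bases before to 50 after the start) were found for 28 of the 37 genes, in 31 windows. The PU.1-type core GAGGAA, on either strand, occurred in 12 of 31 windows of 11 genes (28.3% of all 32851 windows), and GAGGAAGT, which contains it, in 3 windows of Ctss and Ly6c2 (3.20% of all). Both genes are shown, with GAGGAAGT, or its reverse complement in Ctss, in capitals. The windows of Ly6c2 overlap over most of their length and hold the same GAGGAAGT matches, so they are not separate finds. The kappaB consensus occurred in 2 of 31 windows, of Cxcl1 and Tlr2 (4.51% of all). These are shown, with the matches of the consensus, some of which overlap, in capitals, because both genes stand out below by single libraries. They were chosen after their values were seen. A match is a stretch of letters and not a measured binding site.
Ctss, chr3:95526536-95526835, plus strand: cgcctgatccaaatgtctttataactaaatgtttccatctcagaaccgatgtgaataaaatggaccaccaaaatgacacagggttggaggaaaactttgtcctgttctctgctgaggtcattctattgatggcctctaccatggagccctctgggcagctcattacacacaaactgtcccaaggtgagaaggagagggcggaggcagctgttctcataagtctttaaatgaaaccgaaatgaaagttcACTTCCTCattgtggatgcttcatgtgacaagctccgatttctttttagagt
Ly6c2, chr15:75111922-75112221, minus strand: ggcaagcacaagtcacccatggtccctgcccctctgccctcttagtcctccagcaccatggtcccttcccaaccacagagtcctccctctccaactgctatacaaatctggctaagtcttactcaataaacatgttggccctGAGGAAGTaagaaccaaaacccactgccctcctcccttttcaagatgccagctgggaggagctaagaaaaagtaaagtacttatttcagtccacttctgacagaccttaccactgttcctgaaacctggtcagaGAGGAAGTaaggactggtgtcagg
Cxcl1, chr5:90890995-90891294, plus strand: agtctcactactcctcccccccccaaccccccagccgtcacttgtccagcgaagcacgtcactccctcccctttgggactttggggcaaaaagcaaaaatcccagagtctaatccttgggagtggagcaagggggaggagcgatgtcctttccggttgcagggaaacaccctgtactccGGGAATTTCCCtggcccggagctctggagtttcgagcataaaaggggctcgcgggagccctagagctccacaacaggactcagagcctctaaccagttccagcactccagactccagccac
Tlr2, chr3:83841559-83841858, minus strand: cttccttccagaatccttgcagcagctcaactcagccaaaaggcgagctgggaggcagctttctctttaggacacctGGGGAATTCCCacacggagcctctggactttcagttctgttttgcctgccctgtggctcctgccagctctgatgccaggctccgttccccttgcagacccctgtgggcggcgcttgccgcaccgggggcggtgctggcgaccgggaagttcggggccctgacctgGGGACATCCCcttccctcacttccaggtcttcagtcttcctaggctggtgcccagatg

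The resident Kupffer genes had log2 fold changes between -0.24 and 0.12, with 4 of 5 negative. Clec4f, a lectin receptor that marks mouse Kupffer cells (ENSMUSG00000014542, GRCm38 chr6:83644542-83656187, minus strand), stood at 141, 139.7, 126, 105 and 129 CPM in wild type replicates 1 to 5 and at 133, 122, 117, 117 and 141 CPM in knockout replicates 1 to 5. The genotypes overlapped throughout, and wild type replicate 4 was the lowest of all 10. The genotype difference on the log2 scale was -0.02 ± 0.11 (SE; adjusted p = 1.0 by edgeR, as for all 36 genes), with a 95% interval of the fold from 0.832 to 1.16. Clec4f was among the steadiest of the set, with a biological coefficient of variation, the spread between libraries beyond counting error, of 0.145 where genes of like abundance have 0.202. Cd5l, a secreted scavenger protein of macrophages, was at 156 ± 26.3 and 153.5 ± 24.3 CPM (log2 fold change -0.02 ± 0.15). Timd4, a receptor for phosphatidylserine on dying cells that is typical of long-lived resident macrophages, was at 7.87 ± 1.59 and 7.68 ± 1.55 CPM (-0.03 ± 0.18). The intervals of these folds ran from 0.788 to 1.24 for Cd5l and from 0.747 to 1.28 for Timd4. Like Clec4f, Cd5l and Timd4 had their lowest value of all 10 libraries in wild type replicate 4, at 114 and 5.75 CPM.

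Both scavenger receptors in the resident group varied more. Marco, which binds bacteria and particles, stood at 8.04, 11.5, 13.45, 7.11 and 31.2 CPM in wild type replicates 1 to 5 and at 10.5, 4.89, 15.4, 35.4 and 11.4 CPM in knockout replicates 1 to 5. Wild type replicate 5 and knockout replicate 4 were high, 1 in each genotype, and the other 8 lay within 4.89 to 15.4 CPM. Its log2 fold change was 0.12 ± 0.49. Leaving out wild type replicate 5 gave 0.64, and leaving out knockout replicate 4 gave -0.44. Marco's coefficient of variation of 0.533 exceeded that of 97.8% of all genes tested. Cd163, the receptor for haptoglobin-bound haemoglobin, was at 19.6 ± 7.97 and 16.6 ± 4.63 CPM (-0.24 ± 0.27), at -0.54 without the 3 libraries low in long transcripts (adjusted p = 0.335) and at -0.02 without wild type replicate 5, the highest library. Of 26 further Kupffer genes, among them Vsig4, C1qa, Folr2 and Mertk, 0 were called by edgeR (1 at an unadjusted p under 0.05), 13 were negative and 13 positive with a median of -0.01.

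Of 9 genes shared by macrophages in general, 0 passed the test, 8 were negative and the median log2 fold change was -0.13. Adgre1, which encodes the surface protein F4/80, stood at 21.4, 13.95, 26.2, 25.6 and 32.3 CPM in wild type replicates 1 to 5 and at 25.9, 17.3, 19.2, 33.1 and 23.1 CPM in knockout replicates 1 to 5. The ranges of the genotypes overlapped over most of their extent, and the log2 fold change was -0.01 ± 0.22 with a fold interval from 0.711 to 1.38. Csf1r, the receptor for the survival factor of macrophages, was at 64.9 ± 12.7 and 61.6 ± 16.4 CPM (-0.08 ± 0.19). Cd68, a lysosomal protein of phagocytes, was at 16.96 ± 2.40 and 15.4 ± 2.20 CPM (-0.14 ± 0.14). Lyz2 was at 94.3 ± 11.6 and 96.0 ± 16.8 CPM (0.03 ± 0.14). Mpeg1, a pore-forming protein of phagosomes, had a log2 fold change of -0.08 ± 0.17, the lysosomal protease gene Ctss one of -0.16 ± 0.15, and Aif1, an actin-binding protein of activated macrophages, one of -0.13 ± 0.26. Counts of Csf1r were not whole in all 10 libraries, so part of its reads were assigned by estimate, and Hmgxb3 overlaps it on the opposite strand at 10.5 CPM.

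The mannose receptor gene Mrc1 and the scavenger receptor gene Msr1 had the more negative values of that group. Mrc1 was at 40.9 ± 13.8 and 35.0 ± 13.2 CPM (-0.23 ± 0.28). Msr1 stood at 5.196, 6.47, 8.99, 9.68 and 10.3 CPM in wild type replicates 1 to 5 and at 6.67, 8.17, 5.41, 7.12 and 2.83 CPM in knockout replicates 1 to 5. Knockout replicate 5 was the lowest, and wild type replicates 1 and 2 lay within the knockout range. The Msr1 log2 fold change was -0.43 ± 0.27 (unadjusted p = 0.127) and, without the 3 libraries low in long transcripts, -0.82 (adjusted p = 0.249). That was the lowest adjusted p of any of the 36 genes under any of 22 alternatives.

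Of 7 genes of recruited and lipid-associated macrophages, 0 passed the test and 6 were negative, with a median log2 fold change of -0.28. Their levels ran from 0.263 TPM for Cx3cr1 to 15.7 TPM for Lgals3, and Ccr2 and Gpnmb varied most between libraries. Ccr2, the receptor that draws monocytes out of the marrow and into tissue, stood at 1.51, 1.18, 1.08, 3.68 and 3.145 CPM in wild type replicates 1 to 5 and at 1.20, 1.83, 0.902, 2.32 and 0.890 CPM in knockout replicates 1 to 5. Wild type replicates 4 and 5 were high, and the other 3 wild type libraries lay inside the knockout range. Its log2 fold change was -0.59 ± 0.40 with a fold interval from 0.366 to 1.21, which includes both no difference and a level more than 2-fold lower in knockouts. The value was -0.29 without wild type replicate 4, and -0.999 without the 3 libraries low in long transcripts (adjusted p = 0.323). Gpnmb, a membrane glycoprotein of lipid-laden macrophages, stood at 0.933, 0.506, 1.21, 5.64 and 2.86 CPM in wild type replicates 1 to 5 and at 0.994, 0.913, 1.23, 5.81 and 0.387 CPM in knockout replicates 1 to 5. It was high in replicate 4 of each genotype, and the highest library was 15.0-fold above the lowest. Its log2 fold change was -0.28 ± 0.72. Leaving out wild type replicate 4 gave 0.41 (adjusted p = 1.0), and leaving out knockout replicate 4 gave -1.37 (adjusted p = 0.924).

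The other 5 genes of that group varied less. Trem2, the lipid-sensing receptor of these macrophages, was at 2.46 ± 0.70 and 2.28 ± 0.98 CPM (-0.11 ± 0.32), and unlike Gpnmb it was not high in wild type replicate 4, at 2.00 CPM. The tetraspanin gene Cd9 was at 8.198 ± 2.36 and 7.74 ± 1.71 CPM (-0.09 ± 0.21). Lgals3, a galectin secreted by macrophages, was at 13.95 ± 3.603 and 11.04 ± 2.67 CPM (-0.34 ± 0.20, unadjusted p = 0.117). Ly6c2, a surface marker of inflammatory monocytes, was at 1.30 ± 0.39 and 1.38 ± 0.39 CPM (0.08 ± 0.27). Ly6c2 has the near-identical neighbour Ly6c1, so its reads can be split between copies. Cx3cr1, the fractalkine receptor of monocytes and some macrophages, was at 0.991 ± 0.19 and 0.751 ± 0.32 CPM (-0.39 ± 0.31). The Cx3cr1 locus of the annotation overlaps more abundant genes, among them Gorasp1 at 36.0 CPM, so this value is uncertain. Among 24 further genes of monocytes and lipid-associated macrophages, edgeR called 0 of 23 tested (1 at an unadjusted p under 0.05), with 18 negative and a median of -0.33. The smallest p belonged to Spp1, osteopontin, which cholangiocytes also express, at 59.8 ± 31.1 and 30.6 ± 12.8 CPM (difference -0.97 ± 0.35 in log2, adjusted p = 0.797).

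Several chemokine and cytokine genes had 1 library far above the others. Cxcl1, which attracts neutrophils (ENSMUSG00000029380, GRCm38 chr5:90891241-90893115, plus strand), stood at 18.0, 12.3, 9.41, 11.9 and 10.1 CPM in wild type replicates 1 to 5 and at 7.29, 11.8, 7.50, 6.22 and 56.4 CPM in knockout replicates 1 to 5. Knockout replicate 5 lay far above the rest, knockout replicate 2 lay inside the wild type range and the other 3 knockout libraries below it. The log2 fold change of 0.53 ± 0.55 changed sign to -0.59 without knockout replicate 5 (adjusted p = 1.0). In the same library Ccl2 was at 1.045 CPM and Tlr2 at 4.37 CPM, both within the range of the other knockout libraries. Il1b at 4.03 CPM and Tnf at 0.387 CPM were the highest of the knockouts there, though below wild type replicate 4. Cxcl1 and Tlr2, whose promoters are shown above for the kappaB consensus, peaked in different livers. They were shown because of these peaks, so this is a description. The windows of Il1b and Tnf held no match of the consensus, and a link between matches and levels was not tested.

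Ccl2, the ligand of Ccr2, stood at 1.11, 0.731, 0.541, 4.93 and 1.59 CPM in wild type replicates 1 to 5 and at 1.45, 0.867, 0.397, 2.02 and 1.045 CPM in knockout replicates 1 to 5. Wild type replicate 4 was the highest by a wide margin and knockout replicate 4 followed. The log2 fold change was -0.64 ± 0.57 over all libraries and 0.20 without wild type replicate 4. Il1b, the inflammasome-processed cytokine, was at 7.07 CPM in wild type replicate 4 against 2.40 to 2.93 CPM in the other wild type libraries and 1.46 to 4.03 CPM in the knockouts (-0.34 ± 0.36, and 0.09 without that library). Tnf had 90 counts in all and did not enter the fit. It was at 0.929 CPM in wild type replicate 4 and between 0.125 and 0.394 CPM in the other 9 libraries, and an exact two-sided permutation test of log2(CPM + 1) gave p = 0.857, where 0.0079 is the smallest p it can give. Ccl5, a T cell and macrophage chemokine, was at 1.87 ± 0.87 and 1.78 ± 0.51 CPM (-0.07 ± 0.32). Ccl6, a chemokine that macrophages make in quantity, was the steadiest of these, at 15.8 ± 3.03 and 15.0 ± 2.16 CPM (-0.07 ± 0.16, fold interval 0.751 to 1.21).

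Of 31 further chemokines, cytokines and inhibitors, edgeR called 0 of 22 tested (2 at an unadjusted p under 0.05), with 17 negative and a median of -0.09. Cxcl14, a chemokine of epithelia, was at 5.09 ± 1.32 and 2.68 ± 0.96 CPM (-0.92 ± 0.26, adjusted p = 0.454). Cxcl2, a close relative of Cxcl1, was at 2.00 CPM in wild type replicate 4 and between 0.180 and 0.577 CPM in the others (-1.38 ± 0.55, adjusted p = 0.930). Cxcl2 was at 0.194 CPM in knockout replicate 5, so it did not share the peak of Cxcl1 there. Among 20 receptors of chemokines and cytokines 0 of 19 tested were called (1 at an unadjusted p under 0.05). Ifngr2, a chain of the interferon-gamma receptor, had the smallest p (0.33 ± 0.12, adjusted p = 0.822), followed by the chemokine-binding receptor gene Ackr1 (-0.60 ± 0.32, adjusted p = 1.0).

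Of 5 genes that sense bacterial products or pass signals on, 0 passed the test and 4 were negative, with a median of -0.17. Tlr2, a receptor for bacterial lipoproteins, stood at 3.82, 4.61, 4.12, 9.64 and 4.06 CPM in wild type replicates 1 to 5 and at 4.35, 1.87, 4.005, 5.84 and 4.37 CPM in knockout replicates 1 to 5. Wild type replicate 4 was high and knockout replicate 2 low, with the other 8 between 3.82 and 5.84 CPM. The Tlr2 log2 fold change of -0.36 ± 0.31 was -0.02 without wild type replicate 4. Cd14, the co-receptor for endotoxin, was at 8.93 CPM in wild type replicate 4 against 3.15 to 4.17 CPM in the other wild type libraries and 1.64 to 5.47 CPM in the knockouts (-0.48 ± 0.35, and -0.11 without that library). Tlr4, the endotoxin receptor itself, did not share this peak, at 1.86 CPM in wild type replicate 4 and 1.72 ± 0.55 and 1.54 ± 0.49 CPM by genotype (-0.17 ± 0.29). Among 30 further genes of Toll-like receptor signalling edgeR called 0 of 29 tested (2 at an unadjusted p under 0.05), with 16 negative and a median of -0.01. Irf7, which drives type I interferon, was at 56.7 ± 10.3 and 101 ± 46.3 CPM (0.83 ± 0.26, adjusted p = 0.594), and Irak3, an inhibitor of the pathway, at 1.18 ± 0.35 and 1.93 ± 0.69 CPM (0.70 ± 0.30, adjusted p = 0.991). Of 22 genes of NF-kappaB and its targets 0 were called, also at an unadjusted p under 0.05, with 17 negative and a median of -0.04. Their smallest p values were those of the inhibitor-family gene Nfkbiz (0.33 ± 0.20) and the adhesion molecule gene Icam1 (-0.235 ± 0.18), both at adjusted p = 1.0.

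The adaptors that carry the signal of Fc and Trem receptors were abundant, and Tyrobp had 1 of the narrower intervals. Tyrobp, the partner of Trem2, was at 17.4 ± 3.47 and 17.6 ± 2.20 CPM (0.02 ± 0.15, fold interval 0.808 to 1.27). Fcer1g, the gamma chain of Fc receptors, stood at 23.8, 23.9, 11.7, 13.25 and 15.9 CPM in wild type replicates 1 to 5 and at 15.1, 18.4, 14.9, 16.4 and 14.6 CPM in knockout replicates 1 to 5. Wild type replicates 1 and 2 were the highest of all, and these are 2 of the libraries in which short transcripts lay above their mean. Without the 3 libraries that stand apart in this way its log2 fold change went from -0.16 ± 0.20 to 0.15. The Fcer1g transcript has a deposited length of 683 bases, and its counts were not whole in any library. Cybb and Ncf1, a membrane and a cytosolic subunit of the phagocyte NADPH oxidase that makes superoxide, had log2 fold changes of -0.18 ± 0.27 and -0.10 ± 0.19. Ncf1 overlaps Gtf2ird2 on the opposite strand. Of 21 further genes of the oxidase, Fc receptors and their kinases 0 of 20 tested were called, also at an unadjusted p under 0.05, with a median of -0.02. Lyn, a Src family kinase, had the smallest p (-0.14 ± 0.11). Lists of the inflammasome (0 of 8 called, led by Nlrp3 at -0.31 ± 0.36 and P2rx7 at -0.09 ± 0.17) and of antigen presentation (0 of 9, led by Cd86 at -0.15 ± 0.18 and H2-DMa at -0.12 ± 0.17) likewise held 0 at an unadjusted p under 0.05 in edgeR's test.

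Of the genes of leukocyte identity, the transcription factors varied less between libraries than the surface phosphatase. Spi1 was at 11.03 ± 1.41 and 9.79 ± 1.77 CPM (-0.17 ± 0.15, fold interval 0.708 to 1.11). Irf8, a factor of monocyte and dendritic cell fate, was at 8.21 ± 1.20 and 9.14 ± 1.00 CPM (0.15 ± 0.13), the member with a positive value in all 22 alternatives, though it overlaps Gm20388, a more abundant transcript of the same strand at 24.2 CPM. Ptprc, which encodes the pan-leukocyte antigen CD45, stood at 3.51, 6.02, 11.2, 12.96 and 12.8 CPM in wild type replicates 1 to 5 and at 9.07, 6.12, 5.34, 9.74 and 3.99 CPM in knockout replicates 1 to 5. Wild type replicates 3, 4 and 5 lay above every knockout library, while wild type replicate 2 lay among the knockouts and wild type replicate 1 was the lowest of all 10. The Ptprc log2 fold change was -0.45 ± 0.35 over all libraries and -0.82 without the 3 libraries low in long transcripts (adjusted p = 0.261), and its deposited length is 5740 bases.

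Single livers stood out across the set. The highest value of 13 of the 37 genes fell in wild type replicate 4 (9.88% of all genes tested peak there), of 9 in wild type replicate 5 (7.28%) and of 5 in knockout replicate 4 (9.19%). The lowest value of 10 fell in knockout replicate 2 (17.7% of all genes), of 8 in wild type replicate 3 (9.91%) and of 7 in knockout replicate 5 (9.79%). In wild type replicate 4 members differed in direction. Clec4f, Cd5l and Timd4 were at their lowest there, as was Aif1, while Ccr2, Cx3cr1, Cd9, Lgals3, Ccl2, Il1b, Tnf, Tlr2, Cd14, Cd68, Ncf1, Ptprc and Spi1 were at their highest. Not every member went with its group, since the resident gene Cd163 lay above its own mean there, at 0.09, and the lipid-associated gene Trem2 below it, at -0.14. As a mean over the group of log2(CPM + 0.5) relative to each gene's own mean, resident genes were at -0.35 in that library, recruited and lipid-associated genes at 0.62 and chemokines and cytokines at 0.63. Knockout replicate 4 had positive means for the resident and the recruited group, at 0.26 and 0.44, and 0.04 for chemokines and cytokines. Of 26 other Kupffer genes 10 had their lowest value in wild type replicate 4 and 5 their highest, where 9.32% and 9.88% of all genes did, and of 24 other monocyte and lipid-associated genes 11 had their highest and 0 their lowest. Since this library was singled out after its values were seen, these counts are a description of 1 liver and carry no test. The lists are not exclusive to macrophages either, as Cdh5 of the Kupffer list is also on the endothelial list and Spp1 also on the cholangiocyte list.

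**Figure D3:**
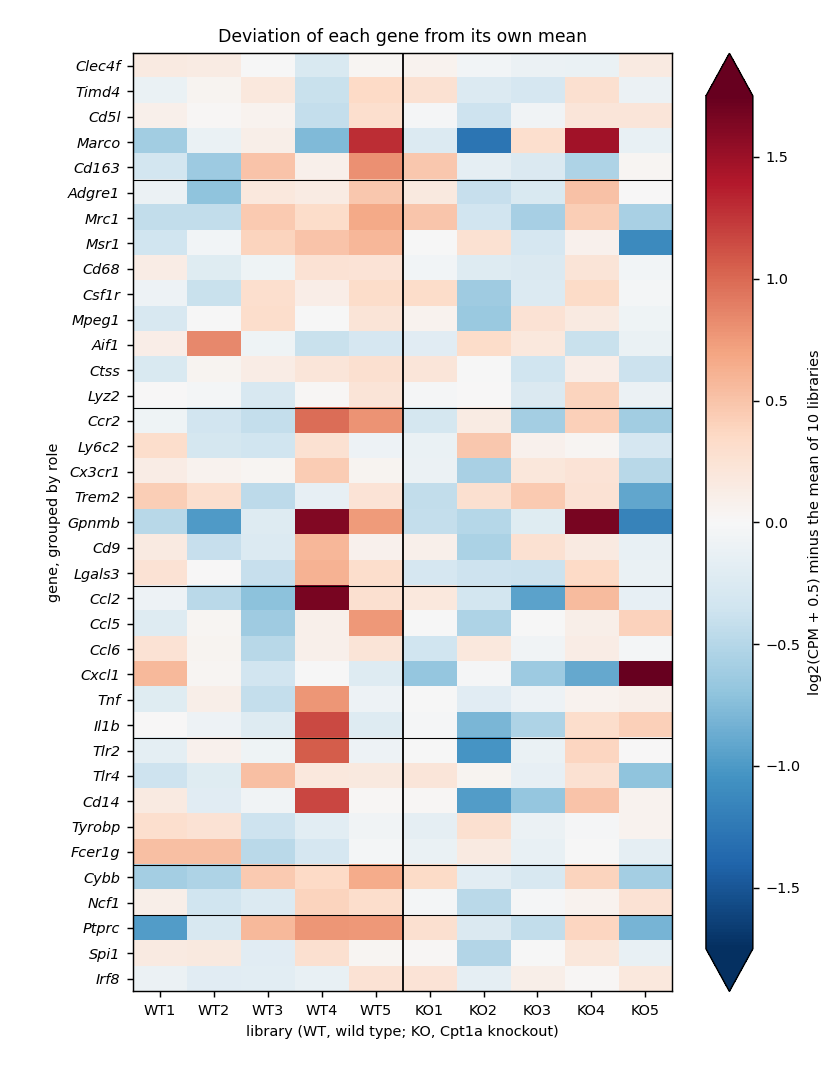
Deviation of each gene (rows, grouped by role) from its own mean over 10 libraries (columns), as log2(CPM + 0.5), red above and blue below the mean, with colours saturated at the ends of the scale. Wild type replicate 4 is blue in 4 of the 5 resident genes, Cd163 being the exception, and red in Ccr2, Gpnmb, Ccl2, Il1b, Tlr2 and Cd14, and knockout replicate 5 stands out for Cxcl1.

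Most neutrophil and cholangiocyte markers with at least 30 counts were at their highest in wild type replicate 4, where 9.88% of all genes tested peak. Other cell types did so less. It was the highest library for 4 of 12 stellate cell, 3 of 12 endothelial and 1 of 12 T cell markers. For B cell, NK cell, dendritic cell and hepatocyte markers the number was 0. Of 11 neutrophil markers, 8 had at least 30 counts and 6 of these peaked in wild type replicate 4. The summed level of the list was 46.9 TPM there, 14.7 to 23.0 TPM in the other wild type and 10.9 to 24.4 TPM in the knockout libraries. TPM sums carry no scaling factor between libraries. Relative to each gene's own mean, log2(CPM + 0.5) averaged 0.34 over the list there and between -0.15 and 0.06 in the other libraries. The defining neutrophil marker Ly6g was at 0 in all wild type libraries, and Mpo was at 0.0457 CPM or below in every library. The calprotectin subunit gene S100a9 was at 5 CPM in wild type replicate 4 and between 1.46 and 2.64 CPM in the other 9 libraries. By genotype S100a9 had a log2 fold change of -0.49 ± 0.28 and Retnlg one of -0.78 ± 0.51, neither called. Cholangiocyte markers peaked in the same library for 6 of the 7 with at least 30 counts, at 122.5 TPM in sum against 30.8 to 62.4 TPM in the other wild type and 23.1 to 52.45 TPM in the knockout libraries. The same mean of log2(CPM + 0.5) over the cholangiocyte markers was 0.635 there and between -0.39 and 0.15 in the other libraries. Spp1 had the most reads of these markers in wild type replicate 4, at 111.9 CPM, not scaled by length. It is also on the list of lipid-associated macrophages. Sox9 was at 4.89, Epcam at 3.82 and Krt19 at 2.11 CPM there. The part of these cell types in the levels of the members was not tested.

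**Figure D4:**
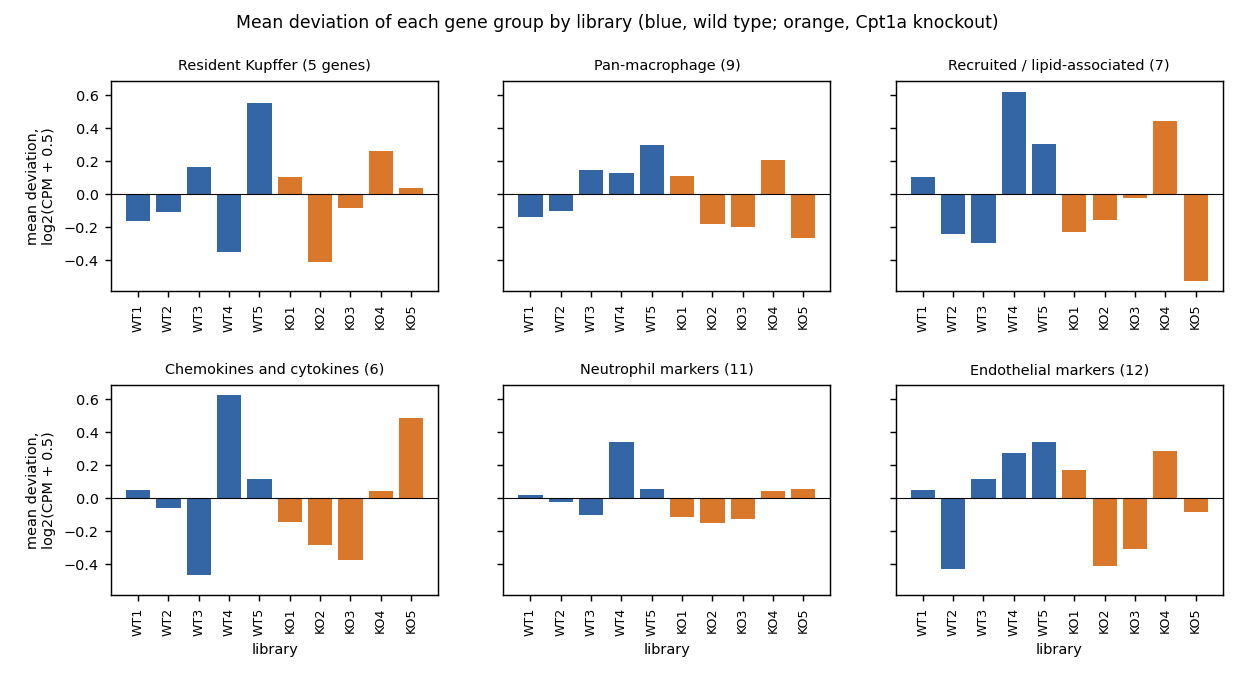
Mean deviation of 4 groups of members and of 2 lists of other cell types (panels) in each library (x axis), as log2(CPM + 0.5) relative to each gene's own mean (y axis), wild type in blue and knockout in orange. In wild type replicate 4 resident genes lie at -0.35, recruited genes at 0.62, chemokines and cytokines at 0.63 and neutrophil markers at 0.34.

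Marker lists of the remaining cell types also held 0 called genes in edgeR's test. T cell markers (7 tested, 1 at an unadjusted p under 0.05) were led by Cd4 (-0.58 ± 0.25, adjusted p = 0.995) and Cd3g (-0.13 ± 0.30). B cell markers (7 tested, 1 at an unadjusted p under 0.05) were led by Ms4a1, at 0.567 ± 0.11 and 0.272 ± 0.12 CPM (-1.04 ± 0.35, adjusted p = 0.671), and Ighm (-0.43 ± 0.22). NK cell markers (3 tested, 0) were led by Klrb1c (-0.34 ± 0.32) and Gzmb (0.22 ± 0.57), and dendritic cell markers (8 tested, 0) by Clec9a (0.51 ± 0.30) and Ccr7 (0.58 ± 0.38). Clec9a and Ccr7 were the only 2 positive dendritic cell markers, the other 6 were negative, and the median of that list was -0.09. Sinusoidal and other endothelial markers were negative in 12 of 12 (median -0.11, 0 at an unadjusted p under 0.05), led by Tek (-0.29 ± 0.19) and Lyve1 (-0.39 ± 0.26). Stellate cell and fibroblast markers were negative in 12 of 12 as well (median -0.35, 2 at an unadjusted p under 0.05), with Lum at -0.71 ± 0.22 (adjusted p = 0.581) and Col3a1 at -0.61 ± 0.26. Sox9 led the cholangiocyte markers beside Spp1 (-0.62 ± 0.19, adjusted p = 0.566, 2 of 7 at an unadjusted p under 0.05), and the hepatocyte list was negative in 8 of 12 (median -0.13, 2 at an unadjusted p under 0.05), led by Pck1 (0.47 ± 0.20) and Asgr1 (-0.29 ± 0.13). These medians were not tested against each other.

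Gene length moved with part of the member values. The 10 members of 4000 bases and over, among them Ptprc, Mrc1, Cybb, Csf1r and Cd163, had median log2 deviations of -0.31 and -0.30 in the first 2 wild type libraries, while wild type replicates 3, 4 and 5 were at 0.39, 0.25 and 0.49. For the 16 members under 2000 bases the same 5 libraries were at 0.13, 0.02, -0.30, 0.155 and 0.15. In knockout replicate 2 the members did not follow the pattern of all genes, with short members at -0.21 and long ones at -0.22, against 0.16 and -0.11 for all short and long genes. In all genes tested the long class was at -0.18 and -0.14 in wild type replicates 1 and 2 and between 0.10 and 0.13 in the other 3. Knockout replicate 5 was low for the long members, at -0.58, although the long class over all genes was at -0.03 there. With an offset for gene length in the fit the median log2 fold change of the members went from -0.14 to -0.11 and 30 of 36 stayed negative. Without the 3 libraries low in long transcripts 0 members were called, and several values moved by more than 1 SE or changed sign. Besides Cd163, Msr1, Ccr2, Fcer1g and Ptprc, given above, Cybb went from -0.18 to -0.49 and Aif1 from -0.13 to 0.15. Clec4f and Cd5l went to 0.07, Ly6c2 to -0.06 and Trem2 to 0.03. Mrc1 went from -0.23 to -0.47 and Tlr4 from -0.17 to -0.46, both within 1 SE. The deposited length may differ from the isoform present, as Trem2 is listed with 4784 bases.

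**Figure D5:**
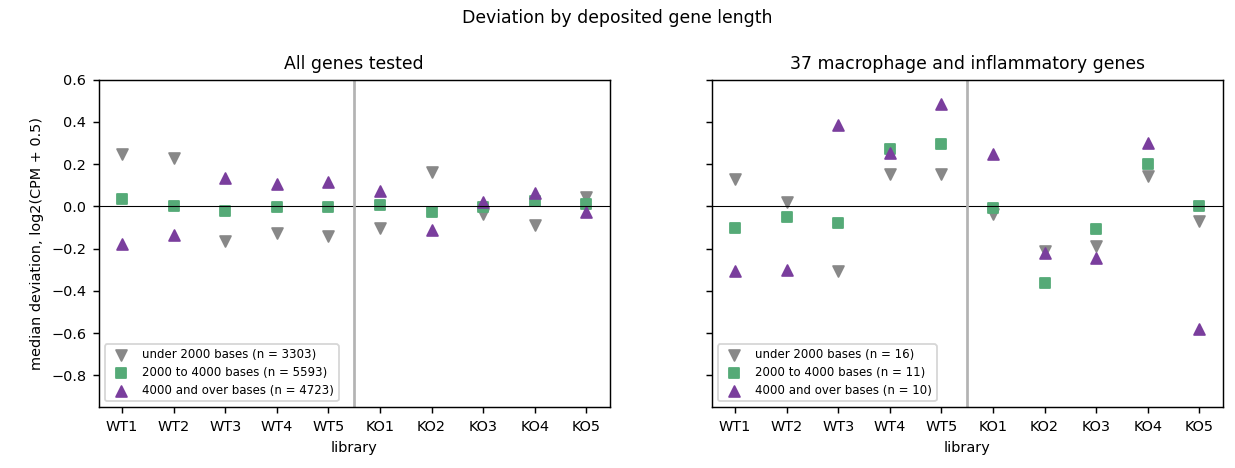
Median deviation, as log2(CPM + 0.5) relative to each gene's own mean (y axis), in each library (x axis) for 3 classes of deposited gene length, in all genes tested (left) and in the 37 genes (right). Long genes lie lowest in wild type replicates 1 and 2, and on the right the lowest point is that of long members in knockout replicate 5, at -0.58.

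The precision of the comparison differed between genes, also within a role. The 95% interval of the fold stayed inside 1.5-fold in either direction for 16 of 36 genes and inside 2-fold for 25. Clec4f, Cd5l, Timd4, Lyz2, Cd68, Ctss, Mpeg1, Csf1r, Adgre1, Tyrobp, Ccl6 and Spi1 were among the 16. So was Cd9 of the recruited group, from 0.685 to 1.3, whereas the interval of the resident gene Marco ran from 0.518 to 2.28. The widest intervals were those of Gpnmb, from 0.281 to 2.43, Ccl2, from 0.271 to 1.51, and Cxcl1, from 0.632 to 3.32. For 22 of 36 genes the spread between libraries exceeded that of genes of like abundance. The same share over all genes tested is not given here, so the count does not set these genes apart. A p that misses the threshold does not show equal levels, and for the genes with wide intervals a 2-fold difference lies within the interval.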

How the data were processed

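The submitters' processing notes name fastp, HISAT, RSEM and the build GRCm38.p5. The sources used here give neither RNA selection nor strand. The deposited table holds the authors' expected counts, which are estimates and were not whole for 7.68% of values, their TPM per library, the authors' deposited log2 fold changes and p-values, and a gene length. Columns of the control arm were matched to the wild type samples by number. All 20 count and TPM columns were used, and 4 rows naming no gene were left out. Expected counts were rounded and tested with edgeR 4.0.16 (quasi-likelihood, robust, TMM, default filter, R 4.3.3) over all genes, with Benjamini-Hochberg adjustment and a threshold of 0.05. SE is the log2 fold change divided by the root of F. CPM uses TMM factors, and TPM serves to compare genes. Alternatives used other scaling, filters, limma 3.58.1, DESeq2 1.42.0, sva 3.50.0, a replicate block and left-out libraries. The test was checked on simulated data. Gene coordinates come from GENCODE, and 27 symbols had been turned into dates. The genes and lists were chosen with earlier results of these data known. Of other lists, the 2 genes with the smallest p are named, except for some that are not reported here. Same-numbered samples correlated between -0.409 and 0.426 and are not treated as pairs. Every pair of libraries differed beyond sampling noise (chi-square over its degrees of freedom at least 30.12).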

Additional observations from a re-analysis of the deposited data

Results flagged for a closer look

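Of 74 sets of 5 libraries, 1 per gene and genotype, 9 had 1 library whose gap to the nearest other exceeded the 95% critical value of Dixon's test (0.71). Chance gives about 1 in 20 for independent, normally distributed values. CPM entered here without a log, the sets share the same libraries, and the rate over all genes was not computed. The 9 flags are therefore a description, and whether they exceed chance was not tested. In wild type replicate 4 these were Cx3cr1 at 1.321 CPM (others 0.8743 to 0.977), Ccl2 at 4.929 CPM (0.5412 to 1.59), Il1b at 7.072 CPM (2.403 to 2.931), Tlr2 at 9.643 CPM (3.819 to 4.613) and Cd14 at 8.929 CPM (3.15 to 4.174). Wild type replicate 5 was high for Marco at 31.24 CPM (others 7.107 to 13.45) and for Irf8 at 10.32 CPM (7.425 to 7.994). Among knockouts, replicate 4 was high for Gpnmb at 5.805 CPM (others 0.3871 to 1.227) and replicate 5 for Cxcl1 at 56.44 CPM (6.217 to 11.82).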

How the results depend on the processing

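No member passed the test under any of 22 alternatives, and the lowest adjusted p was 0.249. Of 791 member values, 717 stayed within 1 SE with the same sign, 64 changed sign, over 20 genes, and 16 genes kept their sign throughout. Over all genes, edgeR called 11 higher and 7 lower. DESeq2 called 56 and 45, a surrogate variable gave 24 and 18, and leaving out the 3 libraries low in long transcripts, chosen after seeing the data, gave 0 and 2. Leaving out 1 library gave 2 to 14 higher and 3 to 10 lower. With the replicate number as a block, 13 were higher and 13 lower, with 0 members called, and 2 of 5 samples correlated best with their own number. The cause of these changes was not tested. Low counts limit Tnf, Cx3cr1 and Ly6c2.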
